A study of Homo sapiens with 9 samples.

Results

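Clade B serpins are a family of protease inhibitors, and 6 of them were followed in the 9 libraries of MOLM13 cells: SERPINB1, SERPINB2, SERPINB6, SERPINB8, SERPINB9 and SERPINB10. They are 6 of the 57820 named genes in the count table. They were chosen by gene symbol and by their measured RBM5 KO against CTRL values, in which SERPINB2 and SERPINB10, neighbours on chromosome 18, were higher. The values of the 6 genes in the knockout against its control are therefore given as a description and carry no test, whereas the overexpression against the same control was tested.

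MOLM13 is a human acute myeloid leukaemia line that carries a KMT2A fusion and an internal tandem duplication of FLT3. CTRL cells carried a non-targeting sgRNA (sgNT), RBM5 KO cells carried the RBM5-sg1 sgRNA with Cas9, and RBM5 OE cells carried a lentiviral RBM5-P2A-Venus cDNA. Each group had 3 biological replicates, and the labels name no drug as a condition. The authors' methods describe blasticidin selection of Cas9 lines and puromycin selection after sgRNA transduction, and state none for the Venus cDNA vector. RBM5 encodes an RNA-binding splicing regulator. The knockout was a pool made with a single sgRNA, and RBM5 OE had the sgRNA control rather than an empty vector as its comparison. Ribosomal RNA was depleted before paired-end sequencing, and the authors deposited expected counts (reads assigned to a gene by RSEM, which need not be whole numbers) and TPM (a relative transcript abundance corrected for length and library).

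The 9 libraries held 25522952 to 27871988 counts, so that a single count was worth 0.0353 to 0.0392 CPM, the count scaled to library size. RBM5 itself measured 117 ± 4.83 CPM (SD, n = 3) in CTRL, 74.6 ± 4.49 CPM in RBM5 KO and 403 ± 20.3 CPM in RBM5 OE, with vector and endogenous reads counted together. The log2 fold change of RBM5 was −0.65 in RBM5 KO (SE 0.0835, adjusted p = 0.00692, edgeR) and 1.78 in RBM5 OE (SE 0.0678, adjusted p = 4.11e-08, edgeR). Without CTRL replicate 1 the adjusted p in RBM5 KO was 0.0606. CTRL replicate 3 and RBM5 KO replicate 1 stood apart from their groups: 357 genes passed an adjusted p of 0.05 in RBM5 KO with all 6 libraries, and 1959 with both left out. All 10 markers of myeloid leukaemia cells and monocytes averaged at least 1 TPM, while PF4, HBB, KRT5, KRT14 and EPCAM were at 0. Of the markers of other cell types, 2 of 6 for T and NK cells (NKG7 at 123 TPM and CD3D at 1.38 TPM in CTRL) and 2 of 6 for epithelium (KRT18 at 8.30 and KRT8 at 4.29 TPM) also averaged at least 1 TPM.

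Serpins inhibit proteases by a suicide mechanism: the protease cuts an exposed loop of the serpin and is then trapped in a covalent complex. Unlike most of the family, the clade B members lack a classical secretion signal and act largely inside cells, where they protect the cell from its own proteases. Myeloid cells store large amounts of serine proteases in granules and make several of these inhibitors. SERPINB1 inhibits neutrophil elastase, proteinase 3 and cathepsin G, SERPINB6 inhibits cathepsin G, and SERPINB9 inhibits granzyme B. SERPINB2, also called plasminogen activator inhibitor 2, inhibits urokinase (PLAU). SERPINB8 can inhibit furin, and SERPINB10, or bomapin, is found mainly in haematopoietic cells of the myeloid lineage.

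The 6 genes lie in 2 clusters. On GRCh37, the build of the deposited counts, SERPINB1 (ENSG00000021355.8, chr6:2832566-2842193), SERPINB9 (ENSG00000170542.5, chr6:2887504-2903543) and SERPINB6 (ENSG00000124570.13, chr6:2948393-2972399) are on the minus strand of chromosome 6. SERPINB2 (ENSG00000197632.4, chr18:61538926-61571122), SERPINB10 (ENSG00000242550.1, chr18:61575192-61603345) and SERPINB8 (ENSG00000166401.9, chr18:61637263-61687013) are on the plus strand of chromosome 18. Only 4069 bases separate SERPINB2 from SERPINB10, and 33917 bases separate SERPINB10 from SERPINB8, with HMSD beginning 13189 bases after SERPINB10 and overlapping SERPINB8. A further protein-coding model (ENSG00000289724, 61564408 to 61584724) runs across the end of SERPINB2 and the start of SERPINB10 and had no entry of its own in the count table.

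RefSeq promoter windows matched 5 of the 6 genes, all but SERPINB10. The 250 bases upstream of the annotated start are shown for SERPINB2 (chr18:63887455-63887704, plus strand, GRCh38.p14) and for SERPINB8 (chr18:63969831-63970080, plus strand, GRCh38.p14), since the groups were apart for SERPINB2 and overlapped for its neighbour SERPINB8. These starts are those of RefSeq and need not be the outer starts of the GRCh37 spans given above. Both sequences run 5′ to 3′ up to the base before the RefSeq start, and capitals mark matches to the motifs searched.
SERPINB2: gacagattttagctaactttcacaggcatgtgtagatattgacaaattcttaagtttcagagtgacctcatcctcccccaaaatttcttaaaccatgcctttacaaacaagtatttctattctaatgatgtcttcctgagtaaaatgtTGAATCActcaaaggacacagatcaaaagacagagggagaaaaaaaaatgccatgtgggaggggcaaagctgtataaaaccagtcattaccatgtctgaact
SERPINB8: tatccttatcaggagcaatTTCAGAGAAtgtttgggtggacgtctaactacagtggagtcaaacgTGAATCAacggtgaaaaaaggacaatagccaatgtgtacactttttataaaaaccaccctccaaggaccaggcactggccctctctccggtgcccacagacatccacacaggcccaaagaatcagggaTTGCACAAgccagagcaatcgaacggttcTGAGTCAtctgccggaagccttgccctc

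The 7 motifs were searched on both strands: AP-1 (TGANTCA), CRE (TGACGTC), NF-kB (GGGANTTCC), STAT (TTCNNNGAA), C/EBP (TTGCNNAA), PU.1 (AGGAAGT) and HOX-PBX (TGATTTA). In SERPINB2 the capitals mark a single AP-1 match at −102 to −96 from the start. In SERPINB8 they mark, in order, a STAT match at −231 to −223, an AP-1 match at −185 to −179, a C/EBP match at −57 to −50 and another AP-1 match at −28 to −22. Of 35116 RefSeq promoters of this length, 6.57% held an AP-1 match, 6.57% a STAT match and 9.05% a C/EBP match, and the shares for the others were 3.12% (CRE), 1.59% (NF-kB), 7.01% (PU.1) and 2.59% (HOX-PBX). On chromosome 6, SERPINB1 had 1 STAT match at −208 to −200, while the SERPINB9 window and all 4 SERPINB6 windows had 0. The share of G and C was 37.2% in SERPINB2, 49.2% in SERPINB8, 63.6% in SERPINB1, 74.4% in SERPINB9 and 47.6% to 76.8% in the SERPINB6 windows. The median over all promoters was 58.0%. These matches describe letters in the sequence and were not tested as binding sites.

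The level of the 6 genes in MOLM13 spanned a wide range. On the TPM scale, which allows genes to be compared, the CTRL means ran from SERPINB1 (93.6 ± 1.35 TPM, SD, n = 3) through SERPINB8 (73.7 ± 11.6), SERPINB6 (19.0 ± 5.96), SERPINB10 (3.22 ± 0.67) and SERPINB2 (1.47 ± 0.563) to SERPINB9 (at most 0.01 TPM in any CTRL library). No neighbouring pair in this order overlapped between the CTRL libraries. In RBM5 KO the order of the means was the same except that SERPINB10 (13.2 ± 0.742 TPM) and SERPINB6 (12.4 ± 1.36 TPM) had changed places. In that group the libraries of SERPINB10 and SERPINB6 overlapped, as did those of SERPINB1 and SERPINB8. The other 7 clade B genes in the table contributed almost nothing: SERPINB3, SERPINB4, SERPINB5, SERPINB7 and SERPINB11 had 0 counts in every library, SERPINB12 had 12 counts in all and SERPINB13 had 5.

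**Figure D1:**
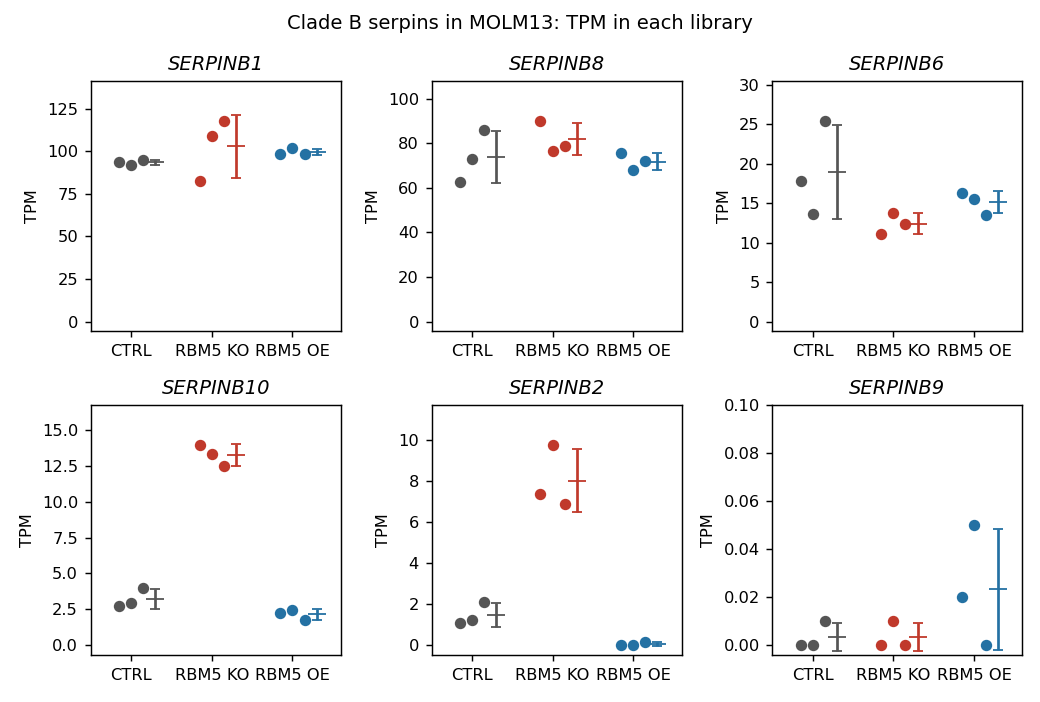
TPM of each clade B serpin in each library (points) with the mean and SD of its 3 libraries (cross bar and whiskers), grouped as CTRL, RBM5 KO and RBM5 OE, on a linear axis that differs between panels. The RBM5 KO libraries of SERPINB2 (6.87 to 9.75 TPM) and SERPINB10 (12.5 to 14.0 TPM) sit above every other library, and the RBM5 OE libraries of SERPINB2 sit at 0 to 0.16 TPM.

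SERPINB2, the urokinase inhibitor, moved furthest of the 6 genes. Its expected counts were 40.7, 48 and 80.8 in CTRL replicates 1 to 3, 304, 387 and 276 in RBM5 KO, and 1, 0 and 6 in RBM5 OE. The same libraries gave 1.09, 1.21 and 2.12 TPM in CTRL, 7.38, 9.75 and 6.87 TPM in RBM5 KO, and 0.03, 0 and 0.16 TPM in RBM5 OE. All 3 knockout libraries were above all 3 controls, all 3 overexpression libraries were below them, and the groups did not overlap. In RBM5 KO such a separation upwards was seen for 11.2% of the 14218 genes tested. In RBM5 OE such a separation downwards was seen for 25.6% of 14370. Expressed as a fitted log2 fold change, RBM5 KO was 2.44 above CTRL (SE 0.254, 5.41-fold), the 13th largest rise among 14218 genes.

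SERPINB10 (bomapin) followed in the knockout with a similar size and from a higher base. It had 112, 129 and 164 expected counts in CTRL, 641, 597 and 560 in RBM5 KO, and 102, 112 and 75 in RBM5 OE. In TPM these were 2.75, 2.93 and 3.99 in CTRL, 13.95, 13.31 and 12.47 in RBM5 KO, and 2.27, 2.49 and 1.74 in RBM5 OE. The knockout libraries formed a narrow band far above the controls, and the overexpression libraries lay just beneath the lowest control. The shares of all genes separated in these ways are those given for SERPINB2. The log2 fold change in RBM5 KO was 2.08 (SE 0.149, 4.22-fold), rank 31 among the rises. Across the 9 libraries the log2 CPM of SERPINB2 and SERPINB10 correlated at r = 0.86, against −0.52 to 0.24 for the other pairs of tested serpins. This is a description over libraries that fall into 3 groups. SERPINB2 and SERPINB10 were named in the choice because both rose in these knockout libraries, and some reads were divided between them. Nothing is therefore read from their higher r. The summed TPM of the 10 myeloid markers was 2068 to 2195 in CTRL, 2717 to 3099 in RBM5 KO and 1521 to 1585 in RBM5 OE, an order set by LYZ (lysozyme; mean 1171, 1977 and 491 TPM). Without LYZ the other 9 summed to 916 to 987 TPM in CTRL, 853 to 1029 in RBM5 KO and 1035 to 1087 in RBM5 OE. The group means of 4 of the 10 markers, LYZ, CD33, MPO and CD68, were highest in RBM5 KO and lowest in RBM5 OE, as for SERPINB2 and SERPINB10. Those of FLT3, MEIS1 and CSF1R ran the other way, lowest in RBM5 KO and highest in RBM5 OE. The means of ITGAM, SPI1 and HOXA9 were also highest in RBM5 OE. The part of these markers in the serpin values was not tested. In bulk RNA, fewer cells of a type and less RNA per cell cannot be told apart.

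Of the 5 serpins with enough counts to be fitted, 2 were called higher in RBM5 KO and 0 lower, where 0.837% of all 14218 genes were called higher, 1.67% lower and 2.51% in either direction. Because this contrast was used to choose the genes, nothing is read from that count. The threshold drew its line between SERPINB10, at 2.08, and SERPINB6, whose −0.62 was the largest change among the 3 serpins that were not called. The central 95% of all genes lay between −0.84 and 0.83 in RBM5 KO. Leaving out CTRL replicate 3 and RBM5 KO replicate 1 together gave log2 fold changes of 2.81 for SERPINB2 and 2.17 for SERPINB10.

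In RBM5 OE, which shares the CTRL libraries with the knockout comparison, SERPINB2 fell. Its log2 fold change was −4.60 (SE 0.641, adjusted p = 0.000214, edgeR), the third largest fall among 14370 genes, and it was lower in 3 of 3 libraries than in any control. SERPINB2 had enough counts to be fitted only through the CTRL libraries, where it was higher, so nothing is read from its call or rank. The size of its fall is poorly set, since it rests on 7 counts in 3 libraries. Its log2 fold change ran from −6.60 to −1.20 over 17 other ways of processing the data, and it passed the threshold in all 17. Those ways do not share a scale, since log2(TPM + 1) shrinks the change of so low a gene. Leaving out each library in edgeR gave −6.60 to −4.01. SERPINB10 was lower by less, at −0.57 (SE 0.198, adjusted p = 0.039, edgeR). The SERPINB10 call held in 7 of 17 alternatives (adjusted p 0.0213 to 0.232 over edgeR, DESeq2 and limma) and was lost without CTRL replicate 2 (0.0656) or 3 (0.0989) and without RBM5 OE replicate 1 (0.0723), 2 (0.0558) or 3 (0.141), each by edgeR. With the replicate number as a block, the edgeR adjusted p of SERPINB10 was 0.0718.

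In all, 2 of the 5 tested serpins were called lower and 0 higher in RBM5 OE. RBM5 OE changed much of the transcriptome, with 20.2% of the 14370 tested genes called lower, 19.8% called higher and 40.1% called in either direction. The groups did not overlap for 2 of the 5 serpins, both lower, and for 51.7% of all genes (25.6% lower and 26.1% higher). Against that background, a call alone says little about a serpin. The SERPINB2 change lay outside the central 95% of all genes (−0.93 to 1.35) and the SERPINB10 change lay inside it. Calls with more than a 4-fold change made up 0.988% of all genes in RBM5 OE, and SERPINB2 was among them. Nothing is read from the size of the SERPINB2 change, since SERPINB2 was fitted only through its CTRL counts.

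**Figure D2:**
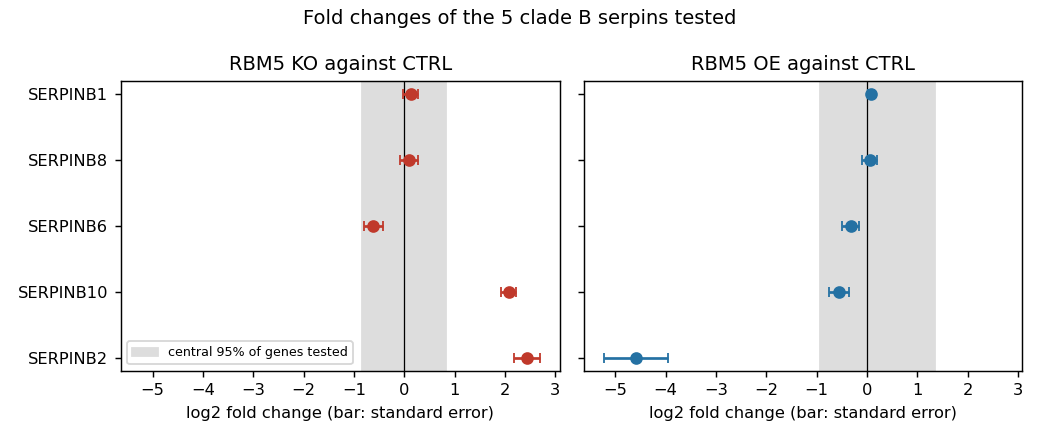
Fitted log2 fold change of the 5 tested clade B serpins (points) with the standard error (bars), for RBM5 KO against CTRL (left) and RBM5 OE against CTRL (right); the grey band holds the central 95% of all genes tested. SERPINB2 (2.44) and SERPINB10 (2.08) lie above the band on the left, and SERPINB2 (−4.60) lies below it on the right.

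Because SERPINB2 and SERPINB10 are adjacent, the sharing of reads between them was examined. The model that spans both in the annotation used for positions had no entry in the count table. The gene models used for the counts may differ from those positions, and what led to the sharing was not tested. The sum of their expected counts was a whole number in each of the 9 libraries (to within 0.006), although SERPINB2 alone was fractional in 4 of them, CTRL replicates 1 and 3 and RBM5 KO replicates 1 and 3. In those libraries some reads were thus divided between the 2 genes. SERPINB2 took 28.9 ± 3.54% of the sum in CTRL (SD, n = 3), 34.8 ± 3.92% in RBM5 KO and 2.79 ± 4.03% in RBM5 OE. The shares of CTRL and RBM5 KO overlapped, and those of RBM5 OE lay below both.

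The sum, which does not depend on how such reads were divided, showed the same directions. It measured 153, 177 and 245 counts in CTRL, 945, 984 and 836 in RBM5 KO, and 103, 112 and 81 in RBM5 OE. Every knockout library exceeded every control, and every overexpression library was below the lowest control. Fitted as a single gene, the sum had a log2 fold change of 2.19 (SE 0.16) in RBM5 KO and −1.04 (SE 0.19, adjusted p = 0.00147, edgeR) in RBM5 OE. In RBM5 OE the sum was almost all SERPINB10.

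**Figure D3:**
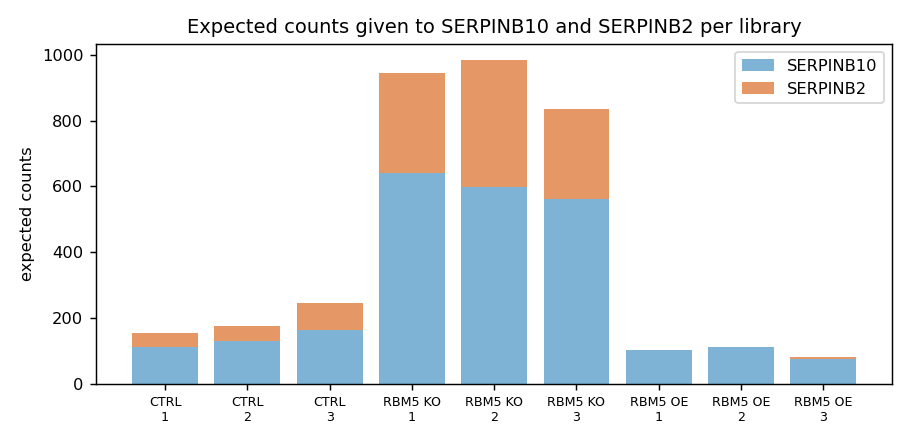
Expected counts assigned to SERPINB10 (blue) and SERPINB2 (orange), stacked for each of the 9 libraries. The stacks reach 836 to 984 counts in RBM5 KO and 153 to 245 in CTRL; in RBM5 OE they reach 81 to 112, with 0 to 6 counts from SERPINB2.

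Of 12 neighbours listed on chromosome 18, 7 had 0 counts in every library and 3 could be tested, and none of the 3 was called in RBM5 KO (median log2 fold change −0.08, against 0.011 for all genes). SERPINB8, the next serpin along the chromosome, had a log2 fold change of 0.09 there (SE 0.181). Among the same 3 neighbours, BCL2, an inhibitor of apoptosis, was higher in RBM5 OE (0.40, SE 0.0745, adjusted p = 0.00142, edgeR), and KDSR, an enzyme of sphingolipid synthesis, was also called higher (0.29, SE 0.0839, adjusted p = 0.017, edgeR). KDSR lost its call without CTRL replicate 2 (0.0543, edgeR) or RBM5 OE replicate 1 (0.0883, edgeR). The remaining neighbour, VPS4B, was not called (0.16, SE 0.0793, adjusted p = 0.125, edgeR). BCL2 and KDSR thus went the opposite way to SERPINB2 and SERPINB10 in RBM5 OE, where 19.8% of all genes were called higher.

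**Figure D4:**
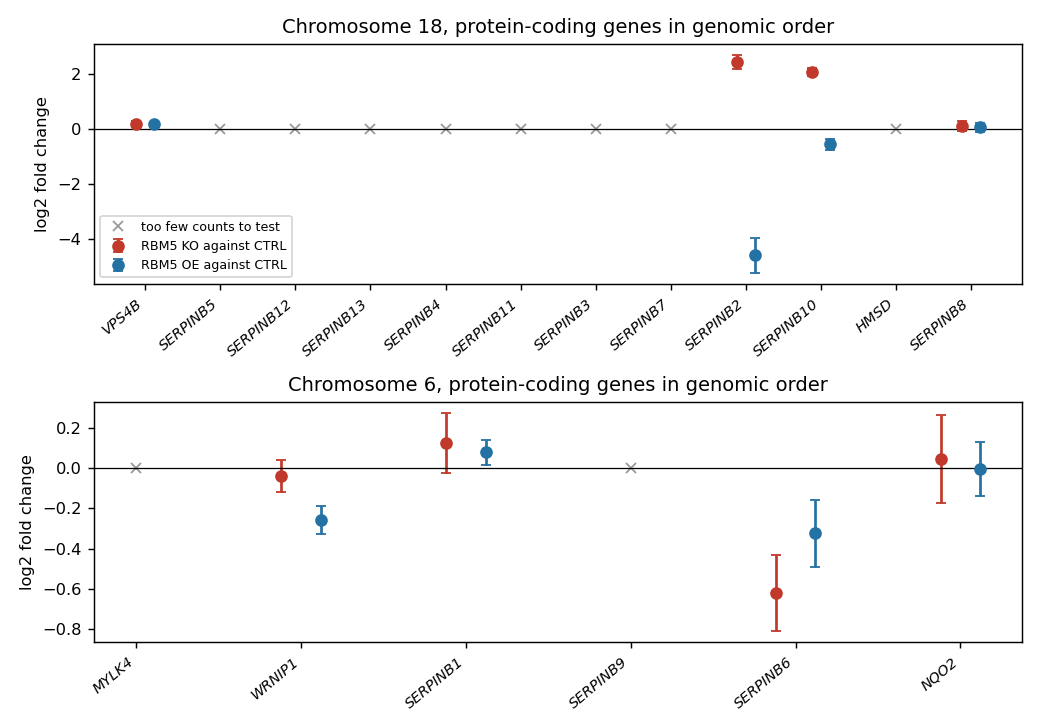
Fitted log2 fold change with its standard error for the protein-coding genes around the chromosome 18 serpins (top) and the chromosome 6 serpins (bottom), in genomic order and not to distance, for RBM5 KO (red) and RBM5 OE (blue); crosses mark genes with too few counts to test, and the vertical scales differ. On chromosome 18 SERPINB2 and SERPINB10 alone among the genes shown exceed 2 in RBM5 KO, and among the chromosome 6 genes drawn SERPINB6 is lowest in RBM5 KO at −0.62.

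SERPINB8, an inhibitor of furin, was the second most abundant of the 6 genes and differed little between groups. It measured 62.6, 72.7 and 85.7 TPM in CTRL, 89.9, 76.5 and 78.9 in RBM5 KO, and 75.5, 67.8 and 71.8 in RBM5 OE. The 3 groups overlapped, and CTRL was the most spread, with replicate 3 the highest. In RBM5 OE the log2 fold change was 0.05 (SE 0.148, adjusted p = 0.808, edgeR). Without CTRL replicate 3 it was 0.30 (adjusted p = 0.00195, edgeR), so that this single library decided whether SERPINB8 was called higher.

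The inhibitors of granule proteases, on chromosome 6, had smaller fold changes than the pair on chromosome 18. SERPINB1, which blocks elastase, proteinase 3 and cathepsin G, measured 93.8, 92.2 and 94.9 TPM in CTRL, 82.4, 109 and 118 in RBM5 KO, and 98.5, 102 and 98.7 in RBM5 OE. RBM5 KO replicate 1 was the lowest library of all 9 and the other knockout libraries were the highest, so the knockout spanned the other groups. The log2 fold change was 0.13 in RBM5 KO (SE 0.148), and 0.30 without RBM5 KO replicate 1. In RBM5 OE it was 0.08 (SE 0.0633, adjusted p = 0.352, edgeR), and SERPINB1 was called in none of the 18 alternatives by edgeR, DESeq2 or limma.

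SERPINB6, which inhibits cathepsin G, was lower in both groups than in CTRL without passing the threshold in RBM5 OE. It measured 17.8, 13.7 and 25.4 TPM in CTRL, 11.1, 13.8 and 12.4 in RBM5 KO, and 16.4, 15.5 and 13.6 in RBM5 OE. CTRL replicate 3 was well above the rest, and in TPM the lowest control fell within the range of both other groups. In CPM the values were 19.0, 15.2 and 26.5 in CTRL and 11.9, 14.1 and 13.5 in RBM5 KO, which did not overlap, as was so for 22.9% of all genes in that comparison. The log2 fold change was −0.62 in RBM5 KO (SE 0.19) and −0.31 with CTRL replicate 3 and RBM5 KO replicate 1 left out. In RBM5 OE it was −0.32 (SE 0.166, adjusted p = 0.145, edgeR), −0.08 without CTRL replicate 3 and −0.50 without CTRL replicate 2, where it was called (adjusted p = 0.0202, edgeR).

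SERPINB9, the granzyme B inhibitor, was close to undetected. It had 0, 0 and 1 counts in CTRL, 0, 1 and 0 in RBM5 KO, and 2, 5 and 0 in RBM5 OE. With at most 5 counts in a library it was not tested, and a difference between groups was not detectable at this depth. Its main target was also low, though with more counts in CTRL: GZMB had 11, 9 and 2 counts in CTRL, 0, 3 and 0 in RBM5 KO, and 5, 2 and 2 in RBM5 OE.

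The proteases that these serpins inhibit were abundant where they belong to myeloid granules. A list of 17 genes held the targets of the 6 serpins and PLAUR, the urokinase receptor, and 10 of them had enough counts to test. In RBM5 KO, 1 of the 10 was called lower and 0 higher (median log2 fold change 0.08), against 1.67% and 0.837% of all genes. That gene was CTSG, which encodes cathepsin G, the shared target of SERPINB1 and SERPINB6. It measured 621, 663 and 624 CPM in CTRL, 406, 281 and 345 in RBM5 KO, and 409, 424 and 449 in RBM5 OE. Both altered groups lay below all controls. That alone was common: all 3 knockout libraries were below every control for 11.7% of the 14218 genes tested. The overexpression libraries were so for 25.6% of 14370. The log2 fold change of CTSG was −0.89 in RBM5 KO (SE 0.126, adjusted p = 0.00968, edgeR) and lost its call without CTRL replicate 1 (0.0668, edgeR) or 2 (0.0643, edgeR).

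In RBM5 OE, 3 of the 10 tested genes of this list were called higher and 3 lower (median −0.02, against 0.013 for all genes), where 19.8% of all genes were called higher and 20.2% lower, so that the counts stand near the background. The 3 lower genes were the neutrophil granule proteases that SERPINB1 inhibits. PRTN3, encoding proteinase 3, fell from 3585 ± 386 CPM (SD, n = 3) to 2103 ± 208 (log2 fold change −0.77, adjusted p = 6.39e-05, edgeR). CTSG fell by 0.57 on the log2 scale (adjusted p = 4.63e-05, edgeR). ELANE, encoding neutrophil elastase, fell by 0.22 on the log2 scale (adjusted p = 0.0316, edgeR), a call that 10 of 18 alternatives kept and that was lost without CTRL replicate 2 (0.0574) or RBM5 OE replicate 1 (0.0679), 2 (0.136) or 3 (0.0777), each by edgeR. Their inhibitor SERPINB1 was at 0.08 in the same comparison.

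The urokinase genes went the other way. PLAUR, the receptor, rose from 137 ± 9.22 CPM in CTRL (SD, n = 3) to 226 ± 2.62 in RBM5 OE (log2 fold change 0.73, adjusted p = 1.42e-05, edgeR). PLAU, the protease that SERPINB2 inhibits, rose from 90.2 ± 7.27 to 115.5 ± 1.09 CPM (0.36, adjusted p = 0.00209, edgeR), while SERPINB2 fell to 0 to 0.228 CPM. The PLAU call was lost in 3 of 18 alternatives, all limma on TPM (adjusted p 0.205 to 0.389), and in TPM CTRL replicate 3 (98.0) lay above the RBM5 OE libraries (86.8 to 91.0). CASP8, an initiator caspase, was also called higher (0.32, adjusted p = 0.0069, edgeR), a call that 2 of 18 alternatives lost (limma on TPM, adjusted p 0.0503 and 0.0792). In RBM5 KO, where SERPINB2 was higher, PLAU had a log2 fold change of −0.22 (SE 0.0964, adjusted p = 0.296, edgeR) and PLAUR of −0.19 (SE 0.0818, adjusted p = 0.28, edgeR). These comparisons use the same CTRL libraries.

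**Figure D5:**
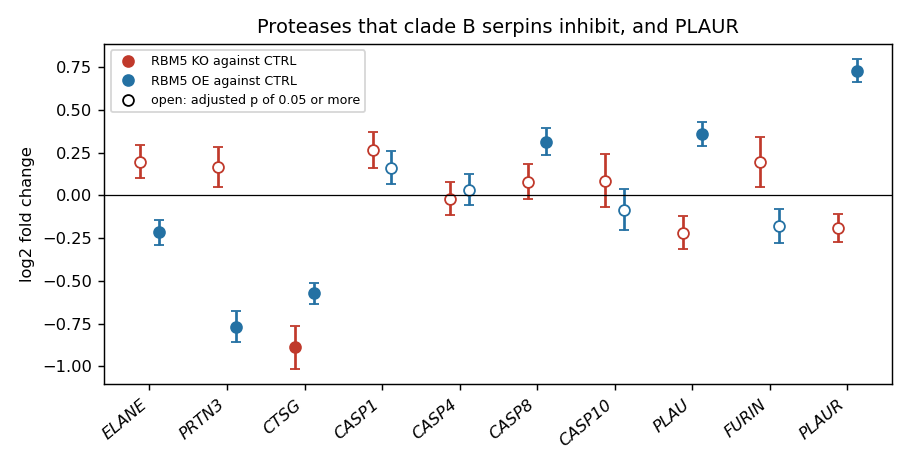
Fitted log2 fold change with its standard error for the 10 tested genes among the proteases that clade B serpins inhibit and the urokinase receptor, for RBM5 KO (red) and RBM5 OE (blue) against CTRL; filled points passed an adjusted p of 0.05 in edgeR. CTSG is the only filled point in RBM5 KO (−0.89), and in RBM5 OE the granule proteases lie between −0.77 and −0.22 while PLAUR is highest at 0.73.

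The 21 listed factors named for the 7 motifs were all expressed well enough to test. In RBM5 KO, 1 of the 21 was called lower and 0 higher, against 1.67% and 0.837% of all genes. That gene was CEBPB, a C/EBP factor of myeloid cells, with a log2 fold change of −1.01 (SE 0.155, adjusted p = 0.0135, edgeR), and its call was lost without CTRL replicate 1 (0.0954), CTRL replicate 2 (0.0792) or RBM5 KO replicate 3 (0.0708), each by edgeR. In RBM5 OE, 9 were called higher and 4 lower, against 19.8% and 20.2% of all genes. CEBPB was among the higher ones at 1.11 (SE 0.13, adjusted p = 6.98e-05, edgeR), so that it was below CTRL where SERPINB2 and SERPINB10 were high and above CTRL where they were low. Of the NF-kB family, RELB rose by 2.52 (adjusted p = 2.17e-05, edgeR) and NFKB1 by 0.64 (adjusted p = 2.34e-05, edgeR). Of the factors grouped with AP-1, ATF3 rose by 2.01 (adjusted p = 6.49e-05, edgeR) and JUNB by 0.72 (adjusted p = 0.000223, edgeR). JUN and JUND were also called higher. In the same group FOSL1 was called lower (−0.57, adjusted p = 0.00401, edgeR), and FOS, FOSB and FOSL2 were not called. Of the C/EBP factors, CEBPD fell by 0.42 (adjusted p = 0.000748, edgeR). No link between these factors and the serpins was tested.

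Genes whose log2 CPM followed each serpin most closely over the 9 libraries were taken from 14754 tested genes, as a description over points that share libraries and fall into 3 groups. For SERPINB2 they were PHKG2 (Pearson r = 0.991), a subunit of phosphorylase kinase, and MYO10 (r = 0.989), an unconventional myosin. For SERPINB10 they were MSRB3 (r = 0.991), a methionine sulfoxide reductase, and DNAJB6 (r = 0.988), a chaperone of the HSP40 family. Their own changes were smaller than those of the serpins: MYO10 had log2 fold changes of 0.47 in RBM5 KO and −0.73 in RBM5 OE, and MSRB3 of 1.04 and −0.26. SERPINB6 was followed by B3GALNT1 (r = 0.961) and SUSD3 (r = 0.901). SERPINB1 was followed by ACP5 (r = 0.965), the tartrate-resistant acid phosphatase, and RP11-1407O15.2 (r = 0.962). SERPINB8 was followed by LIN54 (r = 0.926) and RAD54B (r = 0.924).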

How the data were processed

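RNA-seq of MOLM13 cells in 9 libraries (CTRL, RBM5 KO and RBM5 OE, 3 each) was used. The authors' notes name Trim Galore, STAR 2.7.1a, GRCh37, GATK 4.1.2.0 duplicate marking and RSEM, and the count table is labelled as unstranded. The authors deposited RSEM expected counts per gene, unscaled, and TPM values, scaled by length and library; 92 spike-in entries were left out. Reads of overlapping genes are divided by a model, and strands are not separated, so the antisense transcript over SERPINB8 cannot be told apart from it.

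Expected counts were rounded and fitted with edgeR 4.0.16 in R 4.3.3 (filterByExpr, TMM factors 0.9715 to 1.0254, quasi-likelihood test) on the 6 libraries of each comparison. P-values were adjusted by Benjamini-Hochberg over all tested genes (14218 and 14370) and called under 0.05; CPM use TMM-scaled totals. Alternatives used DESeq2 1.42.0, limma 3.58.1 on voom weights or log2(TPM + 1), other scalings and filters, a replicate block and each library left out. Scripts were tested on simulated data. Genomic positions came from a GRCh37 annotation that holds a gene model absent from the counts, so gene limits may differ from those used for counting. Promoter sequences came from RefSeq GRCh38.p14, and the builds were not mixed. The serpins, gene lists and motifs were chosen with earlier results of these data known. Named from a list were at most 6 called genes with the smallest p per comparison, and for each serpin the 2 genes with the highest r. VPS4B and the other AP-1 factors were named in addition. The labels call the replicates biological; where they were not separate cultures, p-values measure only the spread between these samples.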

Additional observations from a re-analysis of the deposited data

How the results depend on the processing

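In RBM5 KO 2 serpins were called; the number was 0 with limma on log2(TPM + 1) without a filter, where 0 of all genes were called against 357 in edgeR, 3 with DESeq2 (SERPINB6 in addition), 1 when SERPINB2 and SERPINB10 were summed (an alternative added after seeing the data), and 2 to 2 over the leave-one-out fits. Because this contrast was used to choose the serpins, nothing is read from how steady their calls were. Over all genes the count of calls in RBM5 KO was 780 with DESeq2, 891 in a fit of 9 libraries, 154 with the replicate block and 27 to 1114 leaving out each library. In RBM5 OE 2 were called; the number was 1 with library totals alone, limma on log2(TPM + 1) or log2(TPM + 0.1), log2(TPM + 1) without a filter, the replicate block or the summed pair, 3 without a filter on counts (SERPINB6 in addition), and 1 to 2 over the leave-one-out fits; over all genes it was 5756, and 2634 with log2(TPM + 1) without a filter. The 2 calls without CTRL replicate 3 were SERPINB2 lower and SERPINB8 higher (0.30). SERPINB8 changed sign in RBM5 KO without CTRL replicate 1 (−0.04), CTRL replicate 2 (−0.01) or RBM5 KO replicate 1 (−0.02), with 0.35 the highest leave-one-out value, and in RBM5 OE with log2(TPM + 1) (−0.03), log2(TPM + 0.1) (−0.03), log2(TPM + 1) without a filter (−0.03) and without CTRL replicate 1 (−0.10) or 2 (−0.04); the cause was not tested. Same-numbered libraries did not pair: the correlation of their deviations was −0.22, 0.10 and −0.24 in RBM5 KO and 0.02, −0.03 and −0.02 in RBM5 OE. In the replicate block fit SERPINB10 in RBM5 OE was −0.56 (adjusted p = 0.0718, edgeR). SERPINB9 and 7 other clade B genes had too few counts to test, and 5 of those 7 had 0 counts in every library.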

Other observations

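Serpins of other clades were mostly silent: of 21 in the table, 9 had 0 counts in every library and 8 could be tested. In RBM5 KO 0 of the 8 were called by edgeR (median log2 fold change −0.20), though SERPINA1 and SERPINH1 had unadjusted p-values of 0.0266 and 0.00222. In RBM5 OE 2 were called higher and 0 lower (median 0.22), near the 19.8% of all genes called higher. SERPINA1, the plasma inhibitor of elastase, rose from 0.838 ± 0.0459 to 2.12 ± 0.378 CPM (SD, n = 3; log2 fold change 1.34, adjusted p = 0.00271, edgeR). That call was lost in 2 of 18 alternatives, with log2(TPM + 1) without a filter (0.68, adjusted p = 0.0721, limma) and in a fit of all 9 libraries (1.33, adjusted p = 0.0559, edgeR). SERPINH1, a collagen chaperone of the endoplasmic reticulum, rose by 0.38 (adjusted p = 0.00171, edgeR). On chromosome 6, 6 of 10 neighbours of the serpins were tested, with 0 called by edgeR in RBM5 KO and WRNIP1, a DNA-damage response ATPase, called lower in RBM5 OE (−0.26, adjusted p = 0.0115, edgeR; 0.0504 without RBM5 OE replicate 1 and 0.0589 without replicate 2).

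The ratio of expected count to TPM gives the mean transcript length that RSEM assigned to a gene. Relative to other genes of the same library, this length for SERPINB8 was −0.07, −0.26 and 0.21 in CTRL, −0.03, 0.02 and −0.24 in RBM5 KO, and 0.06, 0.18 and 0.10 in RBM5 OE, on the log2 scale. Its range of 0.47 was exceeded by 13.8% of 9643 genes with at least 5 TPM, whose median range was 0.20. The ranges of SERPINB1 (0.19) and SERPINB6 (0.14) were near or under that median. The lowest and highest SERPINB8 lengths both belonged to CTRL. For SERPINB8, TPM and CPM therefore order the libraries differently.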
